A study of Gallus gallus with 6 samples.

Results

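The centriole and centrosome genes examined here are the genes of the structure that carries the primary cilium, chosen by name together with *C2CD3*, the gene the study proposes as the likely site of the talpid2 mutation. Members were the entries whose symbol matched a fixed list of names (*C2CD3*, *KIAA0586*, *OFD1*, the *CEP*, *CETN*, *TUBGCP* and *HAUS* series, and genes for centriole duplication, distal appendages and pericentriolar material). Of 10337 entries, 47 were members, which carried 45 symbols because *ALMS1* and *CEP68* each had 2 entries. The symbol in the table itself matched for 33, the RefSeq symbol of the entry for 12, and a RefSeq synonym for *KIAA0586* and *CEP20*. The rule uses names and no measured value, though it was drawn up with earlier results of these data known.

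RNA came from 3 facial swellings of control and talpid2 chick embryos at HH25: the frontonasal prominence (FNP), which forms the upper beak, the maxillary prominence (MXP), which forms the sides of the face and palate, and the mandibular prominence (MNP), which forms the lower jaw. The 6 libraries comprised 1 control and 1 talpid2 library for each prominence, and tissue from 8 embryos of a genotype was combined in each. Mutant embryos are homozygous for the recessive talpid2 mutation. Whether the sequenced embryos were of the inbred congenic line or the commercial white leghorn line, both of which the study kept, is not stated. The study obtained embryos by mating heterozygous carriers, and whether control embryos here carried a mutant copy is not stated. No other allele or treatment is named for either genotype.

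A centrosome holds a pair of centrioles, short barrels of microtubules, within a cloud of pericentriolar material that nucleates microtubules through the gamma-tubulin ring. When a cell leaves division, the older centriole docks by its distal appendages to a membrane vesicle and the ciliary axoneme grows from its distal end. The primary cilium is needed for Hedgehog signalling and for processing of the GLI factors, and loss of C2CD3 in mouse or of KIAA0586 in chick and mouse prevents cilia from forming. C2CD3 sits at the distal end of the centriole, where it is needed for the appendages and for docking of the vesicle. KIAA0586 is the protein changed in the talpid3 chick, and OFD1 controls the length of the distal centriole.

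A deposited value is on the log2 scale with each gene's median over the 6 libraries set to 0, so it gives a gene's level relative to itself and never relative to another gene. The log2 ratio is the talpid2 value minus the control value of a prominence, and a ratio of 0.5 was the fold limit used for counts. All 47 members lay within the expression limits of the authors in all 6 libraries, as did 9128 of all entries. Numbers of reads could be recovered from the values for 20 members and for 4932 of all genes (47.71%), and the libraries then differed in depth by at most 1.268-fold. With recovered reads a ratio was tested between the 2 libraries by the Audic-Claverie test used in the study (two-sided, exact), with Benjamini-Hochberg adjustment over the 4932 genes, and its 95% Clopper-Pearson interval covers counting error only. These p-values compare 2 libraries and not the genotypes, because no group had a replicate library. Reads of members ranged from 122.5 to 866.5 per library. In pooled tissue, fewer cells of a type and less RNA per cell cannot be told apart.

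Other genes gave the setting for these values. *HAND2*, a marker of the mandibular prominence, stood at 6.70 and 6.91 in the control and talpid2 MNP and between -0.53 and 0.14 elsewhere, and *ALX1*, a frontonasal marker, at 1.94 and 2.16 in the FNP and at most 0.08 elsewhere. Of 20 erythroid markers, 9 were listed, with median ratios of -1.34, -0.95 and -0.66 in the FNP, MXP and MNP. Of the other marker lists, epithelium (8 of 23 listed) had median ratios of 0.17, -0.02 and -0.14, neural tissue (9 of 15) -0.11, -0.06 and -0.13, skeletal muscle (6 of 14) -0.11, -0.21 and -0.37, and the program of multiciliated cells (4 of 15, with its defining gene *FOXJ1* not among them) -0.05, 0.17 and 0.07. Single genes spread widely around some medians, in the FNP from -1.2 to 1.8 for neural tissue and from -0.9 to 2.2 for skeletal muscle. The part of all these marker genes in the ratios of centrosome genes was not tested.

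*C2CD3* (ENSGALG00000017314) was lower in the talpid2 library than in the control library of each prominence, and the fall passed the adjusted test in the MXP. Its control values were 0.11, 0.31 and 0.07 in the FNP, MXP and MNP, and its talpid2 values were -0.07, -0.10 and -0.08. All 3 talpid2 values thus lay below all 3 control values, and the talpid2 values were close to one another while the control MXP stood highest. Control values lay above talpid2 values without overlap for 6.73% of all genes, and *C2CD3* lost this separation with *GAPDH* as the reference gene. Its ratios were then -0.17, -0.52 and -0.24 in the FNP, MXP and MNP, still below 0 in each. The medians of all genes with that reference were 0.01, -0.12 and -0.08. Limma, which fitted genotype over the 6 libraries with prominence as a term, gave a difference of -0.25 (SE 0.07, adjusted p = 0.297). From 266.5, 263.8 and 273.3 reads in control and 194.3, 198.5 and 205.5 in talpid2, the log2 ratio was -0.18 (95% interval -0.46 to 0.08) for FNP, -0.41 (-0.68 to -0.14) for MXP and -0.16 (-0.42 to 0.11) for MNP tissue. In the MXP this is 0.755 of the control level (Audic-Claverie exact p = 0.00241, Benjamini-Hochberg adjusted p = 0.0339). The exact p was 0.167 in the FNP and 0.251 in the MNP, and the ratios of the FNP and MXP did not differ past the threshold (difference 0.22, exact p = 0.258). Transcript of *C2CD3* was therefore present in every talpid2 library, and a level over the whole gene does not tell a changed end of the transcript from an unchanged one.

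*C2CD3* lies on chromosome 1 at 200570510 to 200609588 on the minus strand of the chick genome taken from Ensembl, whose assembly is not named. The listed gene 2114 bases beyond it, *PPME1*, a phosphatase methylesterase, had ratios of 0.06, -0.07 and 0.06. On the other side *PAAF1*, a proteasome-associated protein, had ratios of -0.25, -0.31 and -0.40 at a distance of 31363 bases, with control values above talpid2 values in all prominences as for *C2CD3*. Other nearby listed genes went both ways. *P4HA3* (-0.51, -0.15 and -0.01) had control above, *MRPL48* (0.12, 0.17 and 0.20) and *NEU3* (0.17, 0.38 and 0.28) had talpid2 above, and others overlapped. Over all genes, 6.73% had control above without overlap and 6.71% had talpid2 above. The paper weighed *NEU3* as a candidate gene and reported no change in its expression level, with data not shown.

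**Figure D1:**
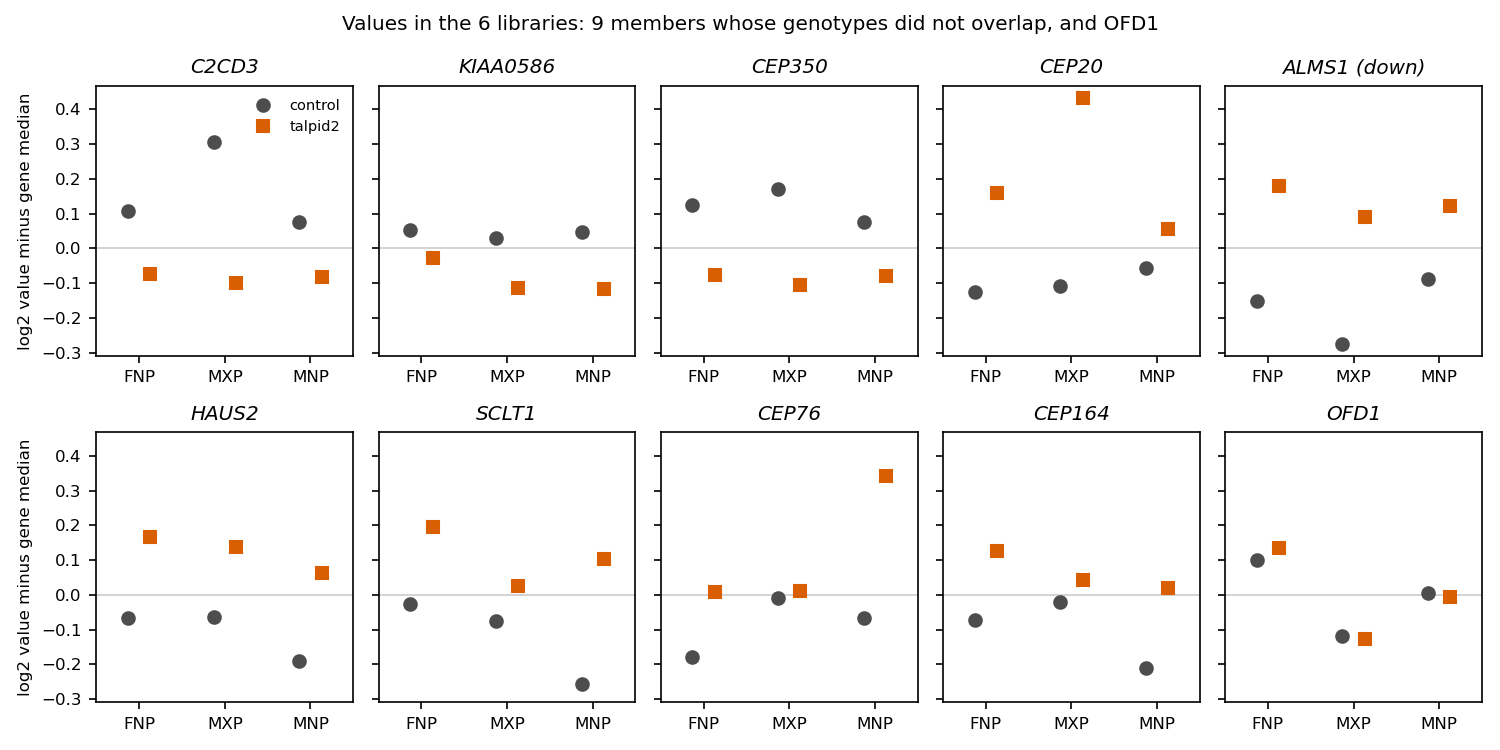
Log2 values relative to each gene's median (y axis) in the 6 libraries (x axis: prominence; circles control, squares talpid2, 1 library each) for the 9 members whose genotypes did not overlap and for *OFD1*; "down" marks the downstream *ALMS1* entry. With each median at 0, genotypes without overlap fall on opposite sides of 0 by construction. *C2CD3*, *KIAA0586* and *CEP350* lie above 0 in each control library and below 0 in each talpid2 library, the next 6 do the reverse, most narrowly *CEP76* in the MXP (-0.01 and 0.01), and *OFD1* overlaps.

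The other genes of the distal centriole did not share one direction. *KIAA0586* had control values of 0.05, 0.03 and 0.05 and talpid2 values of -0.03, -0.11 and -0.12, so that its genotypes did not overlap and its ratios were -0.08, -0.14 and -0.16. Reads could not be recovered for it, and limma, which fitted genotype over the 6 libraries with prominence as a term, gave a difference of -0.13 (SE 0.05, adjusted p = 0.342). *OFD1* differed little between genotypes. It had control values of 0.10, -0.12 and 0.01 and talpid2 values of 0.13, -0.13 and -0.01, and with 555.6 to 755.7 reads per library the 95% intervals of its ratios reached from -0.12 to 0.19, -0.18 to 0.16 and -0.17 to 0.15 for FNP, MXP and MNP. In each prominence the interval of *C2CD3* (-0.46 to 0.08, -0.68 to -0.14 and -0.42 to 0.11) overlapped that of *OFD1*. The difference between these genes was not tested. These intervals cover counting error between single libraries, so they do not bound a difference between the genotypes.

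*CEP76*, which limits centriole reduplication in human cells, stood higher in each talpid2 library under the deposited scaling. With *GAPDH* as the reference gene its MXP ratio was -0.09, beside a median of -0.12 over all genes. It had control values of -0.18, -0.01 and -0.07 and talpid2 values of 0.01, 0.01 and 0.34. The talpid2 MNP value stood apart from the other 5, and the ratio of 0.41 there was the highest of all members in that prominence. *CEP290*, a protein of the transition zone at the ciliary base, had ratios of 0.21, -0.10 and -0.06, and *CEP78*, a distal centriole protein, 0.03, -0.17 and 0.18.

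All 3 members of the distal appendages had ratios above 0 in each prominence under the deposited scaling, whereas with *GAPDH* as the reference gene the MXP ratios of *SCLT1*, *CEP164* and *FBF1* were -0.01, -0.05 and -0.07. The median of all genes in the MXP was then -0.12. A pair of distal appendage genes listed under older symbols, *CEP83* (0.17, -0.08 and -0.08) and *CEP89* (-0.11, -0.02 and 0.19), had ratios of mixed sign. *SCLT1* encodes an appendage protein needed for docking to the ciliary vesicle. Its control values were -0.03, -0.07 and -0.26 and its talpid2 values 0.20, 0.03 and 0.10, which do not overlap and give ratios of 0.22, 0.10 and 0.36. *CEP164*, which recruits the kinase that starts ciliogenesis, had control values of -0.07, -0.02 and -0.21 and talpid2 values of 0.13, 0.04 and 0.02. Its values did not overlap either, and its ratios were 0.20 (95% interval -0.02 to 0.42), 0.06 (-0.17 to 0.29) and 0.23 (0.01 to 0.46), none of which passed the adjusted test. *FBF1* had ratios of 0.07, 0.04 and 0.09 and overlapping genotypes. Limma gave differences of 0.23 (SE 0.07, adjusted p = 0.300) for *SCLT1* and 0.16 (SE 0.06, adjusted p = 0.332) for *CEP164*. Within the genomic span of *SCLT1*, 19478 bases are shared with *CDKL2* on the other strand, and the counting is not stated to use strand, so their reads may be mixed. *CDKL2* had ratios of 0.14, -0.15 and -0.31.

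The genes of the subdistal appendages and of the linker between centrioles included members whose ratio differed between prominences. *CEP250*, the linker protein that holds the centriole pair together, had 574, 569.1 and 718 reads in control and 622.6, 544.2 and 699.2 in talpid2. Its control values were -0.23, -0.03 and 0.03 and its talpid2 values 0.16, -0.09 and 0.24. The control FNP was the lowest of the 6. The ratio in the FNP was 0.39 (95% interval 0.22 to 0.56, 1.31-fold), which passed the test (Audic-Claverie, Benjamini-Hochberg adjusted p = 0.000108). In the MXP it was -0.06 (-0.23 to 0.11), and in the MNP 0.21 (0.06 to 0.37, adjusted p = 0.0606 by the same test).

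*ODF2*, a scaffold of the subdistal appendages, had control values of 0.02, 0.17 and -0.04 and talpid2 values of 0.25, -0.02 and -0.04. Its ratios for FNP, MXP and MNP were 0.23 (95% interval 0.06 to 0.39), -0.19 (-0.37 to -0.02) and 0.00 (-0.17 to 0.17). The adjusted p for the FNP was 0.0511 and for the MXP 0.165 (Audic-Claverie test with Benjamini-Hochberg adjustment). Both ratios passed this test with *GAPDH* as the reference gene, where they were 0.24 and -0.30. The ratios of the FNP and MXP were compared directly by an exact conditional test, adjusted over 4932 genes and 3 pairs of prominences. They differed for *CEP250* by 0.45 (adjusted p = 0.00818) and for *ODF2* by 0.42 (adjusted p = 0.0147), 2 of the 20 members tested, where 5.11% of all genes tested passed. No member passed between the FNP and MNP or between the MXP and MNP, where 4.7% and 3.63% of all genes did, although 1 and 3 members had an unadjusted p of at most 0.05, beside 15% and 12.9% of all genes.

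*CEP350*, a large microtubule-binding protein of the centriole, was lower in each talpid2 library. Its control values were 0.12, 0.17 and 0.08 and its talpid2 values -0.08, -0.11 and -0.08, and its ratios were -0.20, -0.28 and -0.15. Limma gave -0.21 (SE 0.05, adjusted p = 0.276). *CEP170*, a subdistal appendage protein, had ratios of -0.03, -0.10 and -0.04 with overlapping values.

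Among the 17 entries for centriole duplication and assembly, ratios were mixed in sign for 14. The cartwheel and its regulators stood in this group. *CEP192*, which recruits the duplication kinase PLK4, had 605.2 and 602 reads in the control and the less deeply sequenced talpid2 FNP, and it rose there by 0.26 on the log2 scale (95% interval 0.10 to 0.43, Audic-Claverie adjusted p = 0.0177). Its control FNP value of -0.27 was the lowest of its 6 values, and its ratios of 0.06 and 0.02 in the MXP and MNP had intervals that included 0. *SASS6*, the cartwheel protein, showed the same low control FNP, at -0.28 against 0.01 and -0.04 in the other control libraries, and its talpid2 values were -0.01, 0.08 and 0.03. *STIL*, its partner, had ratios of 0.08, -0.08 and 0.28, and *PLK4* itself 0.04, -0.10 and 0.00. *CENPJ*, *CEP135*, *CEP152*, *CEP57*, *CEP63*, *CEP70*, *RTTN*, *POC1B* and the centrin genes *CETN1*, *CETN2* and *CETN3* had ratios between -0.19 and 0.17, and none passed the adjusted test among those with reads. With *GAPDH* as the reference gene, *CEP135* (-0.30) and *CEP70* (-0.23) passed it in the MXP, where the median of all genes was then -0.12. The share of all genes passing under that scaling was not computed. The symbols *CETN1* and *CETN2* of the table are exchanged against those RefSeq gives for the same entries.

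The 2 entries of *ALMS1*, a protein at the base of centrioles that is changed in Alström syndrome of humans, had ratios of opposite sign in the FNP and MXP. They lie on chromosome 4 on the minus strand with 25989 bases and 3 listed genes between them. The downstream entry (ENSGALG00000016039, 93152910 to 93163012) had control values of -0.15, -0.27 and -0.09 and talpid2 values of 0.18, 0.09 and 0.12, which do not overlap. Its ratios were 0.33 (95% interval 0.09 to 0.57), 0.36 (0.11 to 0.62) and 0.21 (-0.02 to 0.44), and it rose in the FNP (Audic-Claverie test, Benjamini-Hochberg adjusted p = 0.0487) and missed the threshold in the MXP (adjusted p = 0.0550 by the same test). In the FNP the adjusted p was 0.0517 when depth was taken from the sum of recovered reads. The upstream entry (ENSGALG00000016081, 93189002 to 93203838) had control values of 0.11, -0.02 and 0.02 and talpid2 values of -0.06, -0.21 and 0.03, with ratios of -0.17 (-0.51 to 0.16), -0.19 (-0.56 to 0.17) and 0.01 (-0.31 to 0.34). The difference between the entries was not tested.

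Genes of the pericentriolar material and the gamma-tubulin ring had small ratios, and reads could be recovered for none of the 8. Their ratios lay between -0.21 and 0.26, and no pair of genotypes was without overlap. *NEDD1*, which attaches the gamma-tubulin ring to the centrosome, had the highest mean ratio with 0.26, -0.04 and 0.05, and its control FNP value of -0.23 was its lowest. *CDK5RAP2*, which activates the ring, had the lowest, with -0.04, -0.21 and -0.0027, and it shares 16315 bases with an unnamed gene on the other strand. *PCNT* and *AKAP9*, the large scaffolds, had ratios of 0.09, -0.15 and -0.07, and of 0.09, -0.15 and -0.05. The ring subunits *TUBGCP2*, *TUBGCP3* and *TUBGCP5* lay between -0.07 and 0.09. *TUBGCP4*, a ring subunit, was the least variable of all members, with a range over the 6 libraries of 0.06. Members had a median range of 0.27 over the 6 libraries, and all genes within the limits in all 6 libraries one of 0.32.

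Both members that encode subunits of augmin, the complex that branches microtubules within the spindle, had ratios above 0 in each prominence, under the deposited scaling and with *GAPDH* as the reference gene. A further subunit under an older symbol, *HAUS3*, had ratios of 0.27, 0.09 and 0.12. Its MXP ratio was -0.02 with *GAPDH* as reference, beside a median of -0.12 over all genes. *HAUS2* had control values of -0.07, -0.06 and -0.19 and talpid2 values of 0.17, 0.14 and 0.06, without overlap, and ratios of 0.23, 0.20 and 0.25. Limma gave 0.23 (SE 0.05, adjusted p = 0.260). *HAUS1* had control values of -0.15, 0.02 and -0.08 and talpid2 values of -0.02, 0.18 and 0.12, and its ratios were 0.13 (95% interval -0.08 to 0.33), 0.16 (-0.04 to 0.36) and 0.19 (0.00 to 0.39). *PCM1*, the scaffold of centriolar satellites, had ratios of 0.17, -0.08 and 0.01.

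*CEP20*, a satellite and centriole protein that promotes cilium formation in human cells, held the largest ratio of all members. It had 260.6, 227.9 and 287.4 reads in control and 263.1, 330.1 and 260.4 in talpid2. Its control values were -0.13, -0.11 and -0.06 and its talpid2 values 0.16, 0.43 and 0.06, so the genotypes did not overlap and the talpid2 MXP stood highest. The ratios for FNP, MXP and MNP were 0.29 (95% interval 0.03 to 0.54), 0.54 (0.29 to 0.79, 1.45-fold) and 0.11 (-0.14 to 0.36). It rose in the MXP (Audic-Claverie, Benjamini-Hochberg adjusted p = 0.000699), and its adjusted p was 0.141 in the FNP by the same test. *CEP55*, a protein of the midbody in dividing cells, had ratios of 0.29, -0.09 and 0.19, and *CEP95*, 0.14, -0.02 and 0.05.

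**Figure D2:**
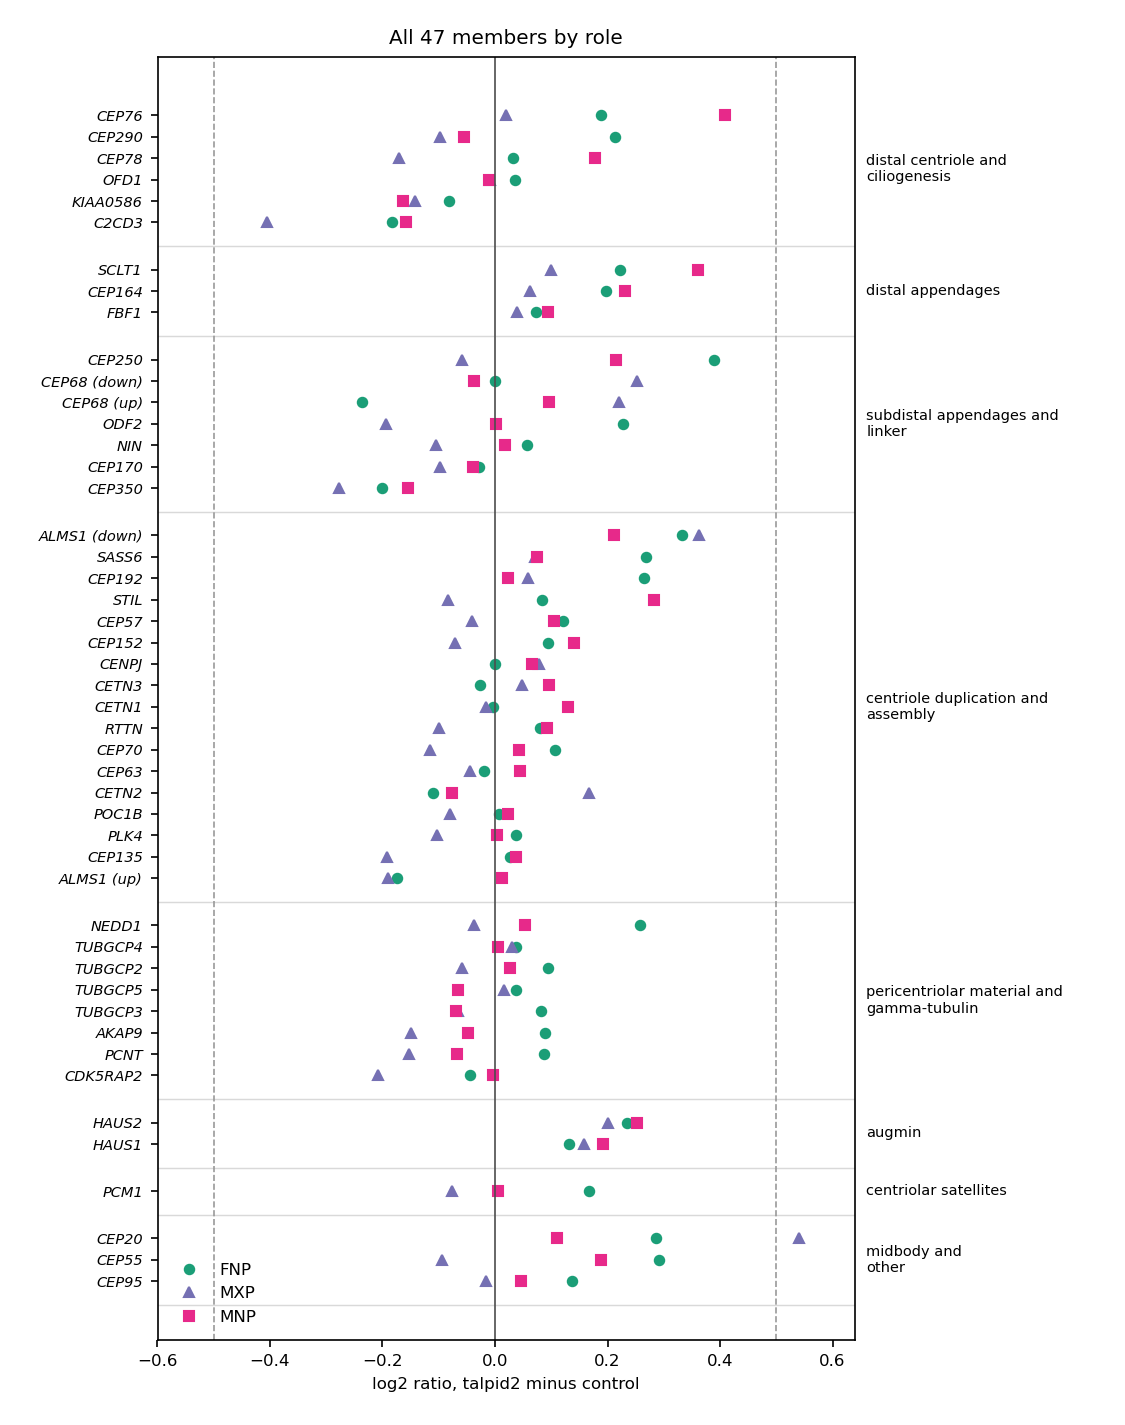
Log2 ratio, talpid2 minus control (x axis), of all 47 members grouped by role (y axis), with a marker for each prominence (circle FNP, triangle MXP, square MNP) and dashed lines at the fold limit of 0.5; "up" and "down" mark upstream and downstream entries of 1 symbol. Only *CEP20* in the MXP crosses a dashed line, at 0.54, and *C2CD3* in the MXP is lowest at -0.41.

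Across the members the ratios were small. The fold limit of 0.5 was passed by *CEP20* alone, higher, for the MXP (1 of 47 members, beside 3.48% of all genes in that direction), and by 0 of 47 for the FNP and for the MNP. In either direction 7.86%, 7.11% and 6.24% of all genes passed it for FNP, MXP and MNP, and 3.97%, 3.28% and 2.45% of genes within the limits in all 6 libraries. Over the members the median for FNP, MXP and MNP was 0.08, -0.06 and 0.04, beside 0.00 over all genes in each. With *GAPDH* as the reference gene the MNP median turned to -0.04 and the MXP median became -0.17, while the medians of all genes moved to -0.08 and -0.12. Ratios above 0 were found for 34 (72.3%), 17 (36.2%) and 34 (72.3%) of 47 members, beside 49.9%, 48.8% and 49.8% of all genes, and with *GAPDH* as reference for 37, 7 and 18 members beside 52.6%, 25.2% and 28.9% of all genes. The 20 members with recovered reads differed from the full set in the MXP. Their medians under the deposited scaling were 0.06, 0.02 and 0.05, with 12, 10 and 16 of them above 0.

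Genes of cell proliferation had median ratios of the same signs as the 47 members under the deposited scaling. Of 32 genes in a list of mitotic and replication genes, 26 were listed, with median ratios of 0.06, -0.03 and 0.02 in the FNP, MXP and MNP, and 17, 9 and 15 of them were above 0. Mean values of that list for FNP, MXP and MNP were -0.23, 0.10 and 0.00 in control and -0.18, 0.06 and 0.02 in talpid2, lowest in the FNP of both genotypes. *CEP192*, *SASS6*, *NEDD1* and *CEP250* were lowest in the FNP of control. Of these *CEP192* and *SASS6* (both -0.01) were lowest in the FNP of talpid2 too, whereas *NEDD1* (0.02) and *CEP250* (0.16) were not. They were not the only such members. *HAUS1*, *CENPJ*, *CEP135*, *PLK4*, *CEP57* and *TUBGCP3* were also lowest in the FNP of both genotypes, and *PCM1* and *RTTN*, among others, in that of control alone. Over all members the mean was lowest in the MNP of control (-0.05, beside -0.01 for the FNP and 0.02 for the MXP). Its part in the ratios of members was not tested. The cilium itself is built by intraflagellar transport, and 22 of 25 genes of that list were present, with median ratios of 0.04, -0.02 and 0.02. Reads were recovered for 9 of them. In the FNP 1 passed the adjusted test, in the lower direction, beside 6.31% of all genes with reads in that direction. In the MXP and MNP none passed, beside 8.21% and 8.39% in either direction.

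**Figure D3:**
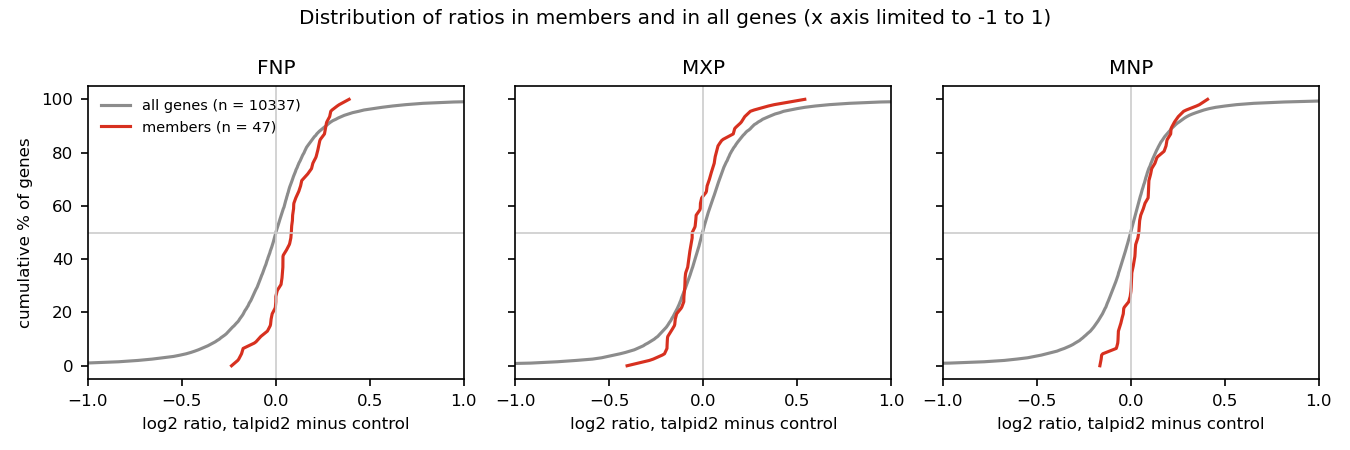
Cumulative percentage of genes (y axis) by log2 ratio, talpid2 minus control (x axis, shown from -1 to 1), for the 47 members and all 10337 genes in each prominence. The members' curve crosses 50% at 0.08 (FNP), -0.06 (MXP) and 0.04 (MNP), and it is steeper than that of all genes.

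The tests within prominences called few members. At an unadjusted p of at most 0.05, as the study used, 5, 5 and 3 of 20 members passed for FNP, MXP and MNP, where 23.9%, 19.7% and 20.4% of all genes with reads passed. After Benjamini-Hochberg adjustment of the Audic-Claverie test, 3 members passed in the FNP, all higher in talpid2 (*CEP250*, *CEP192* and the downstream *ALMS1* entry), beside 5.94% of genes in that direction and 12.2% in both. In the MXP 2 passed, *CEP20* higher and *C2CD3* lower, beside 4.01% of genes in the first direction, 4.2% in the second and 8.21% in both. In the MNP 0 passed, beside 8.39% of genes, and 0 passed with the conditional binomial test. These shares of members, 15%, 10% and 0%, rest on 20 genes.

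**Figure D4:**
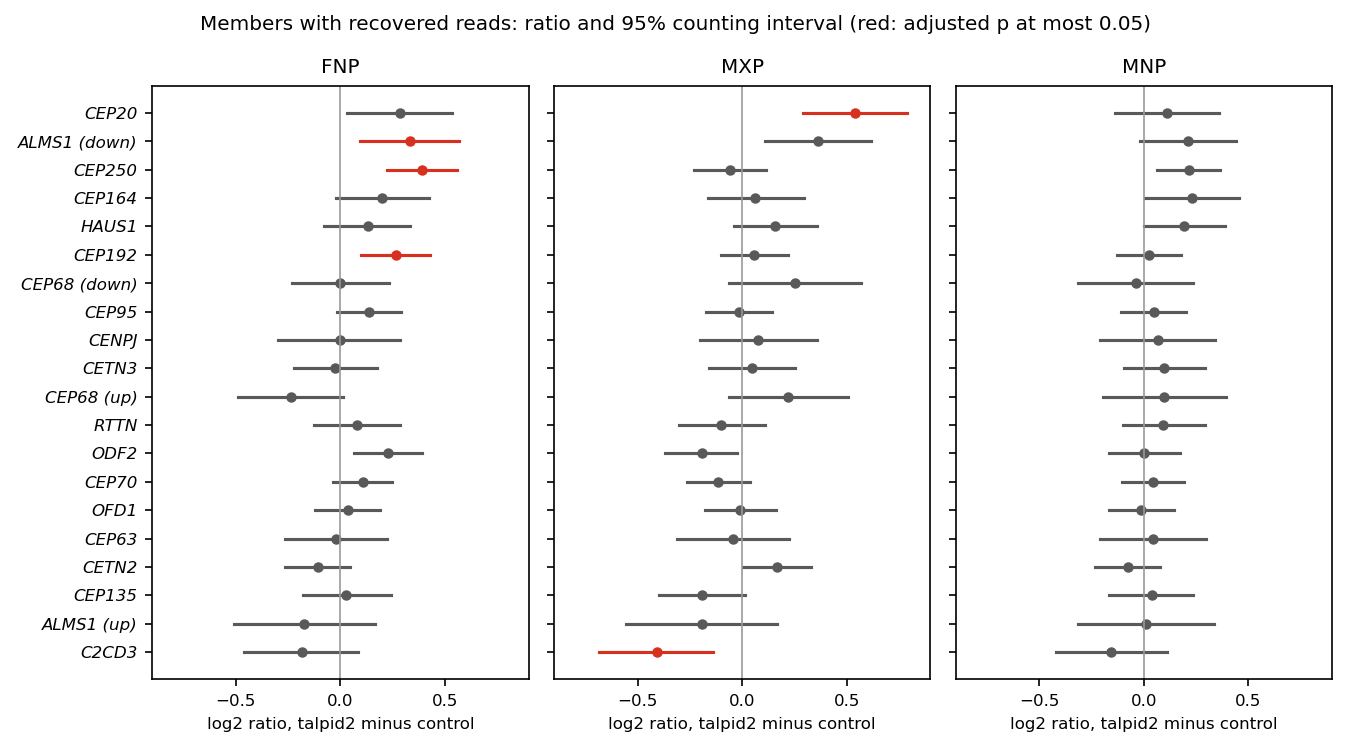
Log2 ratio, talpid2 minus control (x axis, points), with 95% counting intervals (bars) for the 20 members with recovered reads (y axis, ordered by mean ratio), 1 panel per prominence, red where the adjusted p is at most 0.05. Red marks 3 members for FNP, *CEP20* and *C2CD3* for MXP, and no member for MNP.

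Genotypes did not overlap over the 6 libraries for 9 members, 6 with talpid2 above (12.8%, beside 6.71% of all genes) and 3 with control above (6.38%, beside 6.73%). The 6 were *CEP20*, the downstream *ALMS1* entry, *HAUS2*, *SCLT1*, *CEP76* and *CEP164*, and the 3 were *C2CD3*, *KIAA0586* and *CEP350*. With *GAPDH* as the reference gene no member was without overlap, beside 0.871% of all genes with talpid2 above and 2.95% with control above. Ratios were above 0 in all 3 prominences for 11 members (23.4%, beside 20.5% of all genes) and below 0 for 5 (10.6%, beside 21.7%), which added *CDK5RAP2* and *CEP170* to the 3. The prominences of a genotype came from the same embryos and are not independent replicates. Limma called 0 of 47 members and 0% of the 10337 genes for genotype after adjustment, and 8 members (17%) and 14.9% of all genes at an unadjusted p of at most 0.05. The robust form of limma likewise called 0 members after adjustment.

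Few members passed the test between prominences. In this limma fit each prominence rested on 1 control and 1 talpid2 library. Its p-values therefore measure the spread left after the prominence and genotype terms, and not that of replicate pools of a prominence. *CEP68*, a linker protein beside CEP250, had 2 entries 161 bases apart on the plus strand of chromosome 3. The downstream entry (ENSGALG00000008787, 9880272 to 9884456) had control values of 0.58, -0.36 and 0.02 from 345.3, 156.2 and 246.1 reads and talpid2 values of 0.58, -0.10 and -0.02 from 285.8, 185.4 and 201.2 reads. Both FNP libraries were higher than the other 4. The FNP exceeded the MXP by 0.81 (SE 0.10, limma adjusted p = 0.0294) and the MNP by 0.58 (SE 0.10, limma adjusted p = 0.0471). The ratios of this entry were 0.00, 0.25 and -0.04. The upstream entry (ENSGALG00000023676) had control values of 0.41, -0.11 and -0.28 and talpid2 values of 0.18, 0.11 and -0.18, and the same differences did not pass (limma adjusted p = 0.262 and 0.103). Its ratios were -0.24, the lowest of all members in the FNP, 0.22 and 0.10.

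*NIN*, which anchors microtubules at the subdistal appendages, had control values of 0.37, 0.05 and -0.08 and talpid2 values of 0.43, -0.05 and -0.06. Its FNP values exceeded the MNP by 0.46 (SE 0.07, limma adjusted p = 0.0367) and the MXP by 0.40 (SE 0.07, limma adjusted p = 0.0567). *CEP78* had the widest control range of the remaining members, from 0.18 in the MXP to -0.21 in the MNP, and its talpid2 values of 0.02, 0.01 and -0.03 lay within it. Among all members, 1 passed for the FNP against the MXP and 2 for the FNP against the MNP, all higher in the FNP, where 4.51% and 5.25% of all genes passed in that direction and 7.89% and 10.2% in either. For the MXP against the MNP 0 passed by limma, beside 4.64% of all genes, and 0 had an unadjusted p of at most 0.05, beside 19.2%. *GAPDH* was itself higher in the FNP, at 0.30 and 0.29 against -0.13 to 0.05 elsewhere. With *GAPDH* as the reference gene all genes shifted by -0.30 and -0.38 at the median in these contrasts, the differences of *NIN* and of *CEP68* between FNP and MNP became 0.08 and 0.20 and no longer passed, and 20 and 31 members passed (42.6% and 66%, beside 48.9% and 68.7% of all genes), 19 and 31 of them lower in the FNP.

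**Figure D5:**
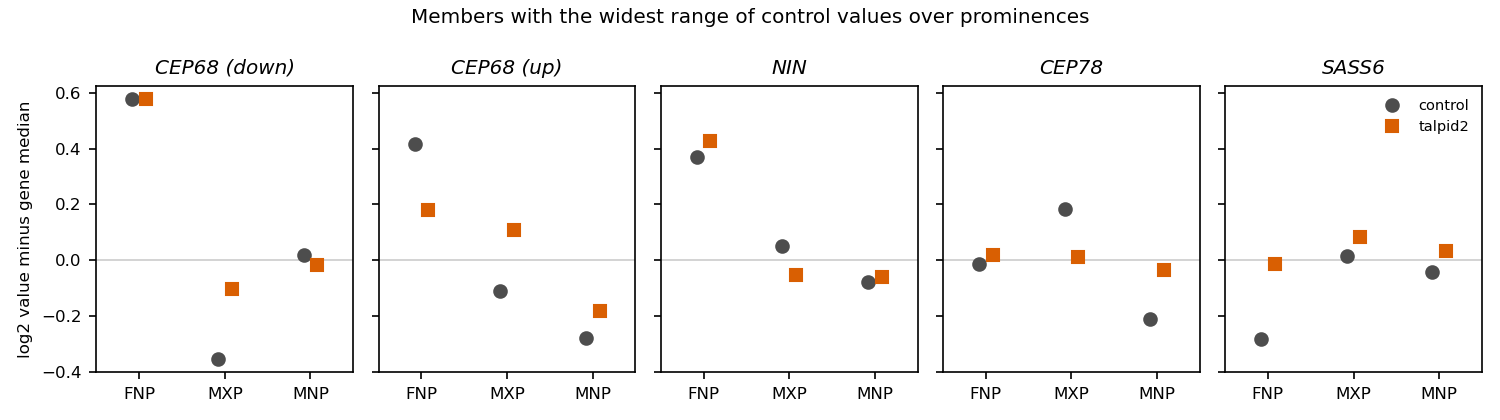
Log2 values relative to each gene's median (y axis) by prominence (x axis) in control (circles) and talpid2 (squares), 1 library each, for the 5 members with the widest range of control values; "up" and "down" mark the upstream and downstream *CEP68* entries. *CEP68* (down) and *NIN* are highest in both FNP libraries, at 0.58 and 0.58 and at 0.37 and 0.43.

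A further 14 entries carried older symbols for genes of the same kind and were not members by the rule. They included *CCP110*, which caps the distal centriole until cilium formation, *CEP97*, its partner, *CEP83* and *CEP89* of the distal appendages, *CEP19*, *CEP41*, *CEP44*, *CEP85*, *CEP131*, *CEP295*, *HAUS3*, *POC1A* and *POC5*. Their median ratios were 0.11, -0.03 and 0.15, and none passed the fold limit. Of the 11 with reads, *CCP110* rose in the FNP (ratio 0.30, Audic-Claverie adjusted p = 0.0106), though it shares 14860 bases with *GDE1* on the other strand. *POC1A*, which keeps centrioles stable, rose in the MXP (0.25, adjusted p = 0.0160) and the MNP (0.32, adjusted p = 0.000299, Audic-Claverie test). *CEP85* rose in the MNP, by 0.30 on the log2 scale (adjusted p = 0.0371 by the same test). Of all genes with reads, 5.94%, 4.01% and 3.87% passed this adjusted test in the higher direction for FNP, MXP and MNP. *CEP19*, which recruits transport proteins to the cilium base, was higher in both FNP libraries, at 0.53 and 0.54, than elsewhere, where it lay between -0.34 and 0.08.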

How the data were processed

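The authors pooled prominences of 8 embryos per genotype, extracted RNA with Trizol, prepared libraries by TruSeq and NuGEN Ovation V2, sequenced them on a HiSeq instrument and used GeneSpring with a chick genome from Ensembl. Aligner and scaling are not given in the sources used here. The deposited log2 values were scaled by library, set to at least 1 before the log, and centred on each gene's median over the 6 libraries by the authors, who kept genes within a lower limit of 3 and an upper limit in at least 1 library and deposited that number of libraries as another column. These steps remove the level of a gene and its depth.

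Ratios were differences of the deposited values, with no pseudocount. Reads were recovered by seeking, up to 1000 reads, the whole numbers of bases of 50-base reads that give a gene's 6 values. Genes with no such solution, among them those with more reads, have none, and wrong step sizes gave a solution for 0.07739% of genes. Relative depth was 0.9493 to 1.204. Reads were rounded to whole numbers for the Audic-Claverie, conditional and binomial tests, run with scipy 1.17.1, numpy 2.4.6 and pandas 2.3.3 in Python 3.11.15. Limma 3.58.1 in R 4.3.3 was fitted to all genes with prominence and genotype as terms, and p-values were adjusted by Benjamini-Hochberg with a threshold of 0.05. Scripts were tested on simulated data, and figures drawn with matplotlib 3.10.9. Names came from the RefSeq table of GRCg7b, used for names only.

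Members, roles and lists were chosen with earlier results of these data known. Named were *C2CD3*, *KIAA0586* and *OFD1*, members past an adjusted test, the 3 highest and 3 lowest ratios in each prominence, the 5 widest control ranges and the extremes of each role group, 26 members in all. Others were named after their values were seen. Alternatives were another reference gene, library medians, gene filters, a fold limit of 1, 10 reads added, at least 10 reads, other depth estimates, tests and fits, and each pair of libraries left out. The reads of *TTBK2*, *CEP120* and *CNTRL* were not analysed here. A further gene under an older symbol is not reported here.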

Additional observations from a re-analysis of the deposited data

Results flagged for a closer look

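Members were looked at again where the genotype ratio itself differed between prominences. For *ODF2* the ratio in the FNP exceeded that in the MXP by 0.42 on the log2 scale, and for *CEP250* by 0.45. Both differences passed the exact conditional test after adjustment over all genes with recovered reads and the 3 pairs of prominences, and both cover counting error between 4 libraries only. *ODF2* was higher in talpid2 in the FNP and lower in the MXP. Neither of these ratios passed under the deposited scaling (Audic-Claverie adjusted p = 0.0511 and 0.165). With *GAPDH* as the reference gene both passed the adjusted test, at 0.24 and -0.30. *CEP250* was higher in the FNP with an MXP interval that included 0.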

How the results depend on the processing

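The count of members past the fold limit in the MXP was 1 higher and 0 lower. It became 0 higher and 1 lower (*C2CD3*) with *GAPDH* as the reference gene, 0 higher with a fold limit of 1, and 0 higher without the 2 synonym matches, an alternative chosen after seeing the data. *GAPDH* as reference also moved the median member ratio from -0.06 to -0.171 (MXP) and from 0.04 to -0.0396 (MNP). As alternatives added after seeing the data, it changed the members past the Audic-Claverie test. At the adjusted threshold 4 passed in the FNP (from 3) and 5 in the MXP (from 2). At an unadjusted p 1 passed in the MNP (from 3). The shares of all genes passing this test with *GAPDH* as reference were not computed. The medians of all genes were then 0.01, -0.12 and -0.08 for FNP, MXP and MNP. Limma's members at an unadjusted p for genotype numbered 8, 4 with *GAPDH* as reference, 2 without the FNP or the MNP libraries and 7 without the MXP libraries, and 0 after adjustment in each fit. Of all 10337 genes, 1542 passed at an unadjusted p in the main fit and 1675 with *GAPDH* as reference. Without the FNP, MXP or MNP libraries 1186, 1140 and 928 did, and 0 passed after adjustment in each fit. For prominences, *GAPDH* as reference gave 31 members at an unadjusted p for FNP against MXP (from 8), 36 for FNP against MNP (from 5) and 1 for MXP against MNP (from 0), beside 62.2%, 73.9% and 19.6% of all genes. After adjustment 20 (from 1) and 31 (from 2) passed for the first and second contrast, beside 48.9% and 68.7% of all genes. Keeping genes within the limits in all 6 libraries gave 1 member at an unadjusted p for MXP against MNP and 2 after adjustment for FNP against MXP, the second being *NIN* (limma adjusted p = 0.036). The shares of all genes in these contrasts under this filter were not computed. No called ratio reversed. The search for reads, which stopped at 1000, limits the tests within prominences to 20 members, and 27 had no recovered reads. The only paired analysis was limma's, which took prominence as a term and gave 1 genotype difference over the 3 prominences, with no test within a prominence. No other was possible because each genotype and prominence had 1 library with the same replicate number.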
